A study of Mus musculus with 9 samples.

Results

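The 10 genes described here are *Dyrk1a*, *Rcan1* and 8 partners in calcineurin-NFAT signalling, chosen by name from the 43629 genes of the count table. *Dyrk1a* and *Rcan1* lie inside the chromosomal segment that Dp1Tyb mice carry in extra copy, and *Rcan2*, *Rcan3*, *Nfatc1*, *Nfatc2*, *Nfatc3*, *Nfatc4*, *Ppp3ca* and *Ppp3cb* lie on other chromosomes. RNA was sequenced from mouse embryonic fibroblasts (MEFs), adherent connective-tissue cells grown from embryos, in 4 WT and 5 Dp1Tyb cultures. All embryos were at stage E14.5, and the authors call them littermates without giving the number of litters. The strain is given as C57BL/6J.129P2, after 10 or more generations of backcrossing to C57BL/6JNimr. The Dp1Tyb embryos carried the allele Dp(16Lipi-Zbtb21)1TybEmcf, a duplication that gives 3 copies in place of 2 of every gene from *Lipi* to *Zbtb21*, on chromosome 16 from 75540514 to 97962622 in GRCm38. The embryos were decapitated and eviscerated, so the cultures held whatever cells of the remaining body grew out, and they were grown for 2 passages. Trypsin was used to make the cell suspension, at passaging and to lift the cells for RNA extraction, and the sources used here name no stimulus of calcium signalling.

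Calcineurin is a phosphatase that calcium and calmodulin switch on. It removes phosphates from the NFAT transcription factors, which then move into the nucleus and, often beside AP-1, switch on their target genes. DYRK1A is a kinase that phosphorylates NFAT for return to the cytoplasm, and RCAN1 binds calcineurin and inhibits it. The human genes for both lie on chromosome 21, the chromosome present in extra copy in Down syndrome. The comparison asks whether an extra copy of each went with a change in its own mRNA and in that of the pathway around it.

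Total counts were between 24804539 and 30009361 per culture, and all 10 genes had enough counts to be tested. Expression is given as normalised CPM, counts scaled to the size of each library, which compare one gene between cultures, or as RPKM, which also divide by exon length and so compare genes. All 8 fibroblast markers were expressed, led by *Col1a1* at between 7922 and 16896 CPM, and the summed fibroblast level was lowest in WT replicate 2 and Dp1Tyb replicate 2. The red blood cell markers were at or under 3 counts in every culture. The culture labels carry a set prefix, set 1 for WT replicate 1 and Dp1Tyb replicate 1 and set 2 for the other 7 cultures, and do not say what the set marks.

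*Dyrk1a* rose in Dp1Tyb MEFs and was the only gene of the 10 to pass the threshold, an adjusted p below 0.05 in edgeR's quasi-likelihood test over 14567 genes. In that test 24 genes, or 0.165% of those tested, were called, all of them higher in Dp1Tyb. Among the 89 tested genes of the duplicated region the share called was 24.7%. The 95% intervals of *Rcan1* and of the 8 genes outside the duplication included a log2 fold change of 0, except that of *Nfatc2*.

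*Dyrk1a* (ENSMUSG00000022897) runs on the plus strand of chromosome 16 from 94570010 to 94695517. Its counts were 53.5, 47.4, 48.7 and 49.2 CPM in WT replicates 1 to 4 and 69.8, 69.4, 71.8, 67.6 and 72.3 CPM in Dp1Tyb replicates 1 to 5. All 5 Dp1Tyb cultures exceeded all 4 WT cultures, and the gap between the genotypes was wider than the range within either. Such a separation upwards was seen for 0.686% of all tested genes and for 51.7% of those in the duplicated region. The log2 fold change was 0.50 with a standard error (SE) of 0.058 (95% interval 0.37 to 0.63, 1.41-fold, edgeR adjusted p = 0.012). DESeq2 called it as well, as it did 0.418% of the genes it tested. A two-sided exact permutation test of the log2 difference gave p = 0.0079, the smallest that 4 against 5 cultures allow. Within set 1 Dp1Tyb replicate 1 was 1.30-fold above WT replicate 1, and within set 2 the fold was 1.45. The adjusted p rose above 0.05, up to 0.084, without WT replicate 2, WT replicate 3, WT replicate 4 or Dp1Tyb replicate 5, while the log2 fold change stayed between 0.48 and 0.54 in all 9 fits that left out one culture. With set 2 alone it was 0.54 with an adjusted p of 0.074.

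The fold of *Dyrk1a* was on the low side for a duplicated gene. It ranked 62 of the 89 tested genes of the region by log2 fold change, where the median was 0.58 (1.5-fold) and the middle 50% of genes fell between 0.46 and 0.68. The 95% interval of *Dyrk1a*, with 0.63 as its upper end, held that median. What set *Dyrk1a* apart from most region genes in description was its small spread. The within-genotype SD of its log2 CPM was 0.058, rank 88 of 89 in the region from the most variable down, against a region median of 0.23. Over all tested genes only 1.66% had a smaller spread.

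**Figure D1:**
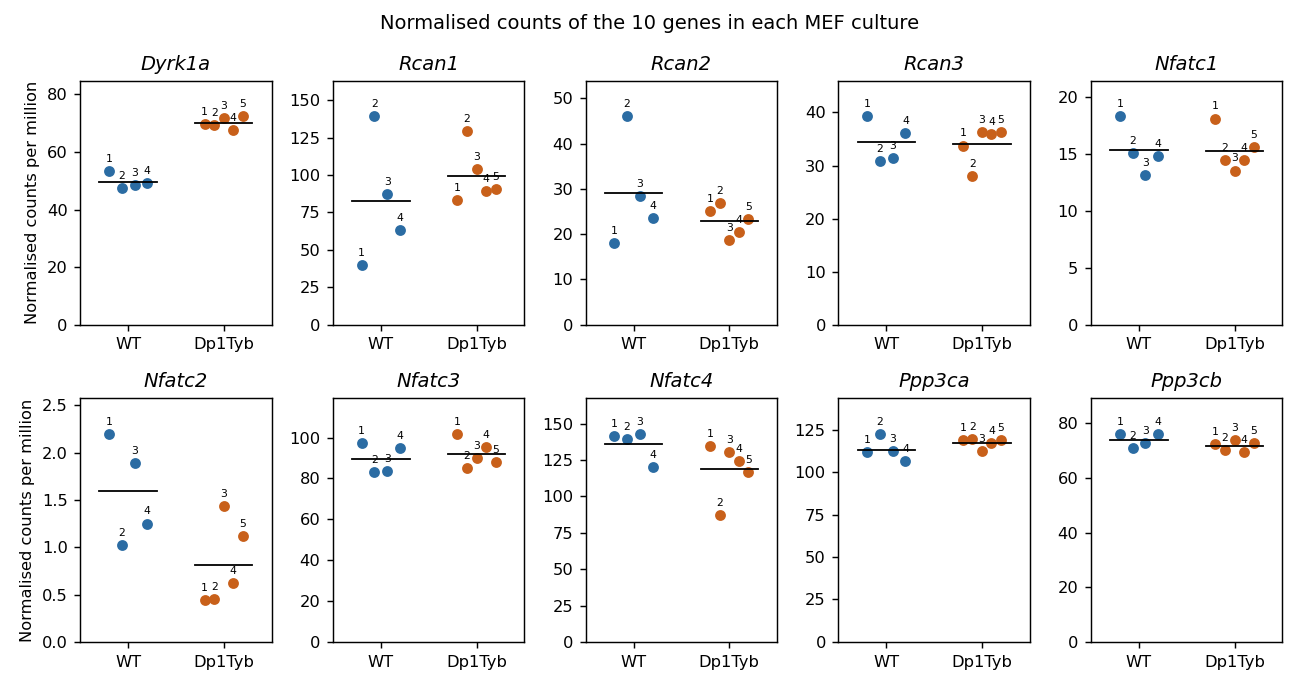
Normalised CPM (vertical axis, from 0) of each gene in WT (blue) and Dp1Tyb (orange) cultures, numbered by replicate, with a black line at each group mean. The Dyrk1a groups are apart, at 47.4 to 53.5 CPM and 67.6 to 72.3 CPM, while those of the other 9 genes overlap.

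*Rcan1* (ENSMUSG00000022951), which codes for the calcineurin inhibitor, lies on the minus strand of chromosome 16 from 92391953 to 92470867. Unlike *Dyrk1a*, it did not pass the threshold. Its counts were 40.2, 139, 87.6 and 63.5 CPM in WT replicates 1 to 4 and 83.2, 129, 104, 89.4 and 90.7 CPM in Dp1Tyb replicates 1 to 5. The lowest and the highest cultures were both WT, so the range of the Dp1Tyb cultures lay inside that of the WT cultures. The mean was 82.6 ± 42.4 CPM in WT (SD, n = 4) and 99.3 ± 18.3 CPM in Dp1Tyb (SD, n = 5). The log2 fold change was 0.27 (SE 0.305, 95% interval -0.42 to 0.95, edgeR adjusted p = 1.00). In folds the interval ran from 0.749 to 1.93, which holds both no change and the 1.5-fold median of the region, so these cultures separate neither from the estimate of 1.20-fold.

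Every culture had at least 1279 *Rcan1* counts, and the counting error of a single culture was at most 2.80%. The within-genotype SD of *Rcan1* log2 CPM, the measure given for *Dyrk1a*, was 0.53. That was rank 19 of 89 in the region and above 85.3% of all tested genes. Over the WT cultures alone the SD was 0.75, rank 8 of 89 (*Dyrk1a* rank 81) and above 94.1% of all tested genes. Over the Dp1Tyb cultures it was 0.25, above 58.7%. WT replicates 1 and 2 carried most of the WT spread. Without WT replicate 1 the log2 fold change was 0.04, and without WT replicate 2 it was 0.64 with an unadjusted p of 0.028. Within set 1 *Rcan1* was 2.07-fold higher in the Dp1Tyb culture, and within set 2 the fold was 1.11 (two-sided exact permutation test, p = 0.66 over 35 relabelings). The adjusted p was 0.94 or more in each fit without one culture.

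The summed level of the 5 skeletal muscle markers was 11.8, 71.9, 24.1 and 32.9 CPM in WT replicates 1 to 4 and 23.0, 251, 42.6, 39.7 and 47.3 CPM in Dp1Tyb replicates 1 to 5, with its lowest and its 2 highest values in the same cultures as those of *Rcan1*. This match at the ends came from *Acta1*, skeletal actin, at 2.04 CPM in WT replicate 1 and at 59.5 and 223 CPM in the cultures numbered 2. In Dp1Tyb replicate 3, which had the third highest *Rcan1*, *Acta1* was at only 4.99 CPM. *Des*, the intermediate filament desmin, did not follow *Rcan1*, with its lowest level of 6.70 CPM in WT replicate 3 and its highest of 38.1 CPM in Dp1Tyb replicate 5. *Des* and *Myh3*, 2 of the 3 tested markers, were higher in Dp1Tyb at an unadjusted p below 0.05, as 1.36% of all tested genes were, and 0 passed adjustment in edgeR. The muscle-determining factors *Myod1* and *Myog* were at or under 3 counts in every culture. Any relation of these markers to the *Rcan1* values was not tested.

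**Figure D2:**
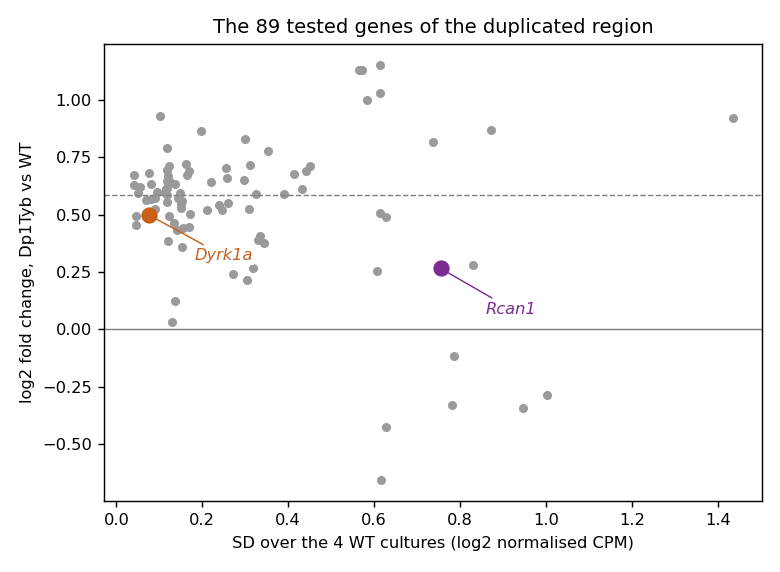
Each point is one of the 89 tested genes of the duplicated region, placed by the SD of its log2 normalised CPM over the 4 WT cultures (horizontal) and its log2 fold change in Dp1Tyb vs WT (vertical, dashed line at 1.5-fold). Dyrk1a sits at an SD of 0.076 and a log2 fold change of 0.50, and Rcan1 at 0.75 and 0.27.

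The *Rcan1* count adds up transcripts from separate starts. GENCODE M21 lists 7 *Rcan1* transcripts, with one group of starts near the upstream end of the gene and a protein-coding transcript that starts inside it at 92400077. The internal start is known as the one that calcineurin and NFAT can induce, so that RCAN1 made from it feeds back on calcineurin. RefSeq promoter windows in GRCm38.p6, 250 bases before to 50 after a start, were found for 8 of the 10 genes. Both *Rcan1* windows are shown because the deposited counts cannot be divided between them, and the first *Dyrk1a* window is shown for contrast with the other duplicated gene. They are printed in the direction of transcription, at chr16:92466120-92466419 (minus strand), chr16:92400029-92400328 (minus strand) and chr16:94569956-94570255 (plus strand). Capitals mark GGAAA, the core that NFAT recognises, and TGACTCA, the AP-1 motif, on either strand, so that a core on the other strand reads TTTCC. No capitals of the 2 motifs overlap. The letters were chosen with the windows already read.
Rcan1 upstream window: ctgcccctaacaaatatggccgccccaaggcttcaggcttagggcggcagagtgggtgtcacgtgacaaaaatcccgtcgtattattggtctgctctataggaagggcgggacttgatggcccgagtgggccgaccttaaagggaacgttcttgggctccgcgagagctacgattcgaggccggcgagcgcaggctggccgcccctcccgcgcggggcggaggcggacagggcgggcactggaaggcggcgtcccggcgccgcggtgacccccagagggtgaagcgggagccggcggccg
Rcan1 internal window: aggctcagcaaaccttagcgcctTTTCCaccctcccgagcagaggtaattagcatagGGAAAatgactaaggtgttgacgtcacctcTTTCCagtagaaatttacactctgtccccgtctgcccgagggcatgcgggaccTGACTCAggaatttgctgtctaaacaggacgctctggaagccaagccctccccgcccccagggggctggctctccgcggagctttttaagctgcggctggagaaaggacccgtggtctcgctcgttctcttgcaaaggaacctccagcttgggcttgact
Dyrk1a first window: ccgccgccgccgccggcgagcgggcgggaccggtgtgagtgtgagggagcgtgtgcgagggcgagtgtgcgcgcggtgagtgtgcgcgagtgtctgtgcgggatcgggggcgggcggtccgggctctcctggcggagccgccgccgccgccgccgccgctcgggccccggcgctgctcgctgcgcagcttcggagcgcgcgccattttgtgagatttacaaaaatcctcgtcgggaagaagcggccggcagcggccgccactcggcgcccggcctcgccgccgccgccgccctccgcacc

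The upstream *Rcan1* window and the first *Dyrk1a* window held neither motif, while the other 2 *Dyrk1a* windows in the table held 1 and 2 GGAAA cores and no AP-1 motif. The internal *Rcan1* window held 3 GGAAA cores and 1 AP-1 motif. Of the 32851 windows in the RefSeq table, 61.3% held at least 1 GGAAA core, 9.42% held 3 or more, and 5.20% held an AP-1 motif. The windows also differed in CpG dinucleotides, with 54 in the first *Dyrk1a* window, 33 in the upstream *Rcan1* window and 14 in the internal one, against a median of 7. Windows of *Nfatc2* and *Nfatc4* held 3 cores as well, and that of *Ppp3cb* held 4. These are matches of letters, with no binding measured here.

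The other calcineurin regulators of the same family did not change by the test. *Rcan2* (ENSMUSG00000039601, chromosome 17) was at 18.0, 46.0, 28.5 and 23.6 CPM in WT replicates 1 to 4 and 25.2, 26.9, 18.7, 20.5 and 23.4 CPM in Dp1Tyb replicates 1 to 5. The WT cultures again spanned the Dp1Tyb cultures, with WT replicate 1 lowest and WT replicate 2 highest as for *Rcan1*. Its log2 fold change was -0.34 (SE 0.24, 95% interval -0.88 to 0.20, edgeR adjusted p = 1.00). It was -0.026 without WT replicate 2, -0.51 without WT replicate 1 (unadjusted p = 0.039) and -0.55 in set 2 alone (unadjusted p = 0.048), with adjusted p of 0.987 or more in edgeR, while in set 1 the Dp1Tyb culture was 1.40-fold higher. *Rcan3* (ENSMUSG00000059713, chromosome 4) ranged from 30.9 to 39.3 CPM across WT cultures and from 28.0 to 36.3 CPM across Dp1Tyb cultures, a log2 fold change of -0.017 (SE 0.10, 95% interval -0.25 to 0.22).

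On the RPKM scale *Rcan1* made up most of the *Rcan* family mRNA in every culture, from 52.5% to 73.1% across WT cultures and from 68.6% to 78.2% across Dp1Tyb cultures. The share of *Rcan2* was 16.5% ± 0.50 in WT (SD, n = 4) and 11.99% ± 1.89 in Dp1Tyb (SD, n = 5), with no overlap between 15.9% to 17.1% and 9.47% to 14.6%. The RPKM ratio of *Rcan1* to *Rcan2* was 3.17, 4.28, 4.36 and 3.80 in WT replicates 1 to 4 and 4.69, 6.79, 7.90, 6.17 and 5.50 in Dp1Tyb replicates 1 to 5. Every Dp1Tyb ratio was above every WT ratio, although the groups overlap for each gene by itself. This ratio was singled out after its values were seen, and neither it nor the *Rcan2* share carries a test. Both join a higher mean of *Rcan1* with a lower mean of *Rcan2*. How often other genes separate in this way was not counted.

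The catalytic subunits of calcineurin held nearly constant levels. *Ppp3ca* (ENSMUSG00000028161, chromosome 3), the main catalytic subunit, was at 112, 123, 113 and 106 CPM in WT replicates 1 to 4 and 119, 120, 112, 117 and 119 CPM in Dp1Tyb replicates 1 to 5. The groups overlapped in a narrow range, and the log2 fold change was 0.050 (SE 0.061, 95% interval -0.085 to 0.19). *Ppp3cb* (ENSMUSG00000021816, chromosome 14) was at 76.2, 71.0, 72.7 and 76.1 CPM in WT and 72.5, 70.3, 73.9, 69.4 and 72.8 CPM in Dp1Tyb, a log2 fold change of -0.043 (SE 0.053, 95% interval -0.16 to 0.076). For these subunits the intervals leave out changes of 1.14-fold or more upwards and of 0.893-fold or less downwards. Only 0.43% of all tested genes had a smaller within-genotype SD than *Ppp3cb*, and 2.29% a smaller one than *Ppp3ca*. The antisense gene *1810062O18Rik* overlaps *Ppp3cb* with a mean of 16.4 counts, and the strand setting of the counting is not given in the sources used here.

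Because the catalytic subunits varied so little, they serve as a common denominator. The RPKM ratio of *Dyrk1a* to *Ppp3ca* and *Ppp3cb* together was 0.327, 0.282, 0.302 and 0.309 in WT and 0.420, 0.421, 0.443, 0.417 and 0.434 in Dp1Tyb, again without overlap. With so steady a denominator this repeats the separation of *Dyrk1a* itself and is no further result. The ratio of *Rcan1* to the same sum was 0.656, 2.22, 1.45 and 1.07 in WT and 1.34, 2.10, 1.72, 1.48 and 1.46 in Dp1Tyb. Inhibitor mRNA per catalytic subunit mRNA thus overlapped between the genotypes for *Rcan1*, and WT replicate 1 was the only culture with a ratio below 1. Among the 3 catalytic genes *Ppp3ca* gave 50.5% of the RPKM in WT and 52.2% in Dp1Tyb, and *Ppp3cc* gave 12.1% and 11.7%.

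**Figure D3:**
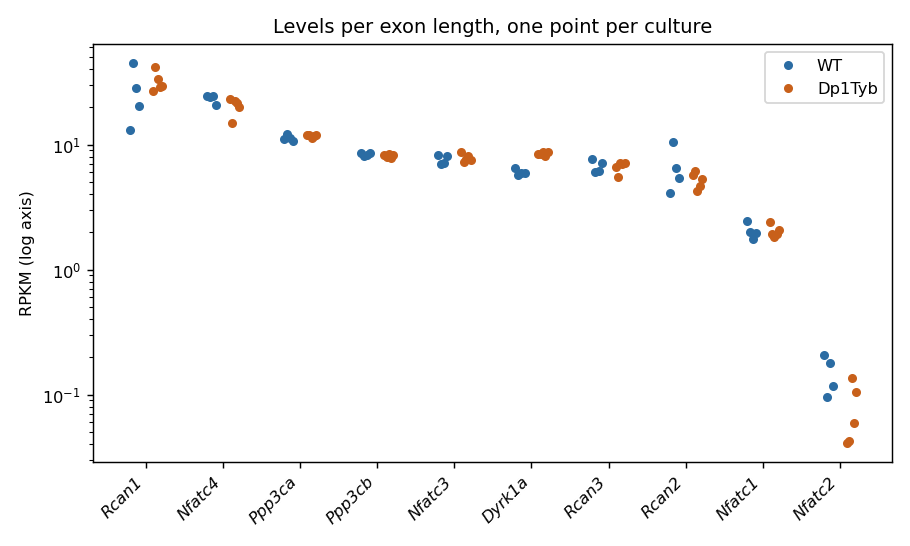
RPKM of the 10 genes on a log axis, ordered by the mean over all cultures, with one point per WT (blue) or Dp1Tyb (orange) culture. Rcan1 leads with a mean of 29.8 RPKM and a wide scatter, and Nfatc2 is last at 0.110 RPKM.

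Per exon length the 10 genes ranged from *Rcan1* at 29.8 ± 9.8 RPKM (SD, n = 9) to *Nfatc2* at 0.110 ± 0.058 RPKM. *Nfatc4* followed *Rcan1* at 21.8 RPKM and was below it in 7 of 9 cultures. *Ppp3ca* at 11.6 RPKM was below *Nfatc4* and above *Ppp3cb*, at 8.26 RPKM, in 9 of 9 cultures. The middle of the order was not resolved, since *Ppp3cb*, *Nfatc3* at 7.75, *Dyrk1a* at 7.40, *Rcan3* at 6.70 and *Rcan2* at 5.87 RPKM followed each other with the higher gene ahead in only 5 to 7 of 9 cultures. *Dyrk1a* was at 6.02 ± 0.32 RPKM in WT (SD, n = 4) and 8.51 ± 0.23 RPKM in Dp1Tyb (SD, n = 5). Its mean thus lay below those of *Rcan3* and *Nfatc3* in WT and above both in Dp1Tyb. *Nfatc1* at 2.05 RPKM was below *Rcan2* and above *Nfatc2* in 9 of 9 cultures.

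Among the NFAT factors, the transcription factors that calcineurin activates, *Nfatc4* and *Nfatc3* supplied nearly all mRNA. *Nfatc4* held 70.4% ± 2.86 of NFAT RPKM in WT (SD, n = 4) and 67.0% ± 3.02 in Dp1Tyb (SD, n = 5), and *Nfatc3* held 23.0% and 26.0%. *Nfatc1* held 6.17% and 6.78%. *Nfatc2*, best known from T cells, held 0.448% and 0.252%.

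*Nfatc4* (ENSMUSG00000023411, chromosome 14) was at 142, 140, 143 and 120 CPM in WT replicates 1 to 4 and 135, 87.2, 131, 124 and 117 CPM in Dp1Tyb replicates 1 to 5. Dp1Tyb replicate 2 was well below all others. The log2 fold change was -0.20 (SE 0.124, 95% interval -0.47 to 0.081, edgeR adjusted p = 1.00), and -0.10 without that culture. *Nfatc3* (ENSMUSG00000031902, chromosome 8) ranged from 82.9 to 97.1 CPM across WT cultures and from 85.1 to 102 CPM across Dp1Tyb cultures, with a log2 fold change of 0.039 (SE 0.079, 95% interval -0.14 to 0.22). It overlaps *Esrp2* on the opposite strand, which had a mean of 101 counts. *Nfatc1* (ENSMUSG00000033016, chromosome 18) ranged from 13.2 to 18.3 CPM across WT cultures and from 13.5 to 18.1 CPM across Dp1Tyb cultures, with a log2 fold change of -0.0088 (SE 0.12, 95% interval -0.28 to 0.26).

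*Nfatc2* (ENSMUSG00000027544, chromosome 2) had few reads, 70, 26, 49 and 33 counts in WT replicates 1 to 4 and 12, 11, 38, 15 and 29 counts in Dp1Tyb replicates 1 to 5. In CPM these were 2.20, 1.02, 1.89 and 1.25 in WT and 0.438, 0.450, 1.44, 0.625 and 1.12 in Dp1Tyb. The groups overlapped, since Dp1Tyb replicates 3 and 5 were above WT replicate 2. The log2 fold change was -0.96 (SE 0.405, 95% interval -1.87 to -0.056) with an unadjusted p of 0.040 in edgeR, which did not survive adjustment (adjusted p = 1.00). An unadjusted p below 0.05 was reached by 3.13% of all tested genes. The ratio of Dp1Tyb to WT was 0.234 in set 1 and 0.644 in set 2, and the counting error of a single culture reached 30.2%.

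Schwann and neural crest markers were also lower in Dp1Tyb cultures. All 3 tested markers, *Sox10* and *Erbb3* among them, were lower at an unadjusted p below 0.05 and 0 passed adjustment in edgeR, where 1.77% of all tested genes were lower at that unadjusted level. The summed level of the 4 markers was 54.9, 32.6, 52.3 and 26.8 CPM in WT replicates 1 to 4 and 17.6, 12.8, 26.7, 14.1 and 7.90 CPM in Dp1Tyb replicates 1 to 5, highest in the WT cultures with the most *Nfatc2*. The match did not hold throughout. Dp1Tyb replicate 5 had the lowest sum, yet its *Nfatc2* of 1.12 CPM was above the 1.02 CPM of WT replicate 2. The macrophage markers ranged from 54.3 to 197 CPM in WT and from 14.0 to 278 CPM in Dp1Tyb, with the lowest sums in Dp1Tyb replicates 1 and 2, which were also lowest in *Nfatc2*. At the other end they differed, since Dp1Tyb replicate 3, with the highest macrophage sum, had 1.44 CPM of *Nfatc2*. That was below the 2.20 CPM of WT replicate 1. The part of these cells in the *Nfatc2* values was not tested, and in bulk RNA fewer cells of a type and less RNA per cell cannot be told apart. Of the remaining lists, the epithelial sum ranged from 3.68 to 15.4 CPM in WT and 2.17 to 6.17 CPM in Dp1Tyb, the endothelial sum from 7.17 to 15.3 and 5.51 to 19.9 CPM, and the cartilage sum from 23.3 to 29.1 and 23.0 to 51.7 CPM.

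**Figure D4:**
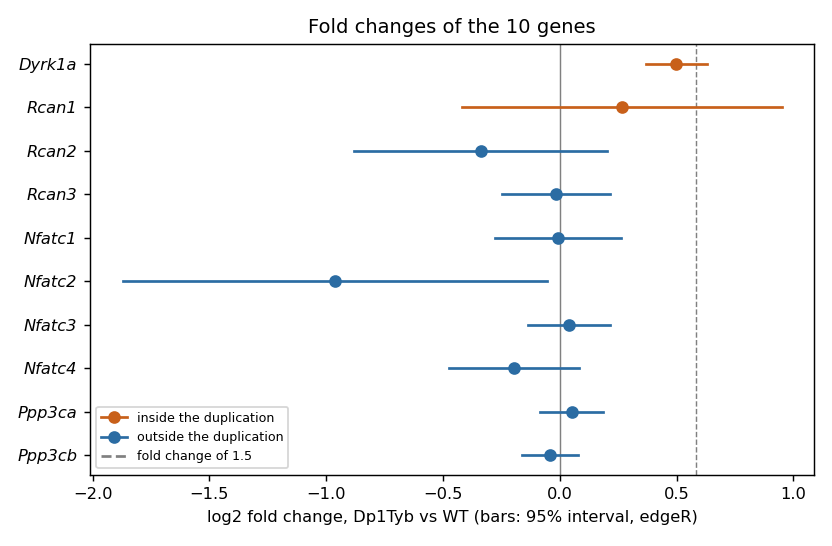
Log2 fold change of each gene in Dp1Tyb vs WT MEFs (points) with its 95% interval from edgeR (bars), orange for genes inside the duplication and blue outside it, with a dashed line at 1.5-fold. Only the intervals of Dyrk1a (0.37 to 0.63) and Nfatc2 (-1.87 to -0.056) leave out 0.

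The wider pathway was followed through 63 further genes in 8 lists, of which 52 were tested. None of the 52 passed the threshold in edgeR, and 0 were called by DESeq2. At an unadjusted p below 0.05 there was 1 gene, *Dyrk1b*. Over all tested genes the shares were 0.165% past the threshold and 3.13% at that unadjusted level, so counts of 0 and 1 of 52 are near the background. The median log2 fold change of the 52 was 0.031, against 0.0027 over all tested genes, and 38 of them lay within 0.2 of 0, as did 76.0% of all tested genes. Protein levels and NFAT location were not measured.

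The remaining tested calcineurin subunits lay within 0.2 of 0. The regulatory subunit *Ppp3r1* was at 31.0 RPKM (mean of 9 cultures) with a log2 fold change of 0.022 (SE 0.092), and the third catalytic gene *Ppp3cc* was at 2.67 RPKM with -0.043 (SE 0.12). *Calm2* and *Calm3*, which code for calmodulin, the calcium sensor that opens calcineurin, were at 275 and 139.9 RPKM. Their log2 fold changes were -0.013 (SE 0.11) and 0.066 (SE 0.063). All 5 tested genes of other binders and inhibitors lay within 0.2 of 0, among them *Chp1*, a calcineurin-B-like protein, at 0.12 (SE 0.13), and the drug-binding immunophilins *Fkbp1a* at 0.10 (SE 0.18) and *Ppia* at 0.027 (SE 0.16).

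Of 11 tested kinases that can act on NFAT beside DYRK1A, 9 lay within 0.2 of 0. The exception with an unadjusted p below 0.05 was *Dyrk1b*, the closest relative of *Dyrk1a*. It was at 19.2, 18.4, 20.9 and 18.4 CPM in WT replicates 1 to 4 and 18.1, 15.0, 15.9, 18.1 and 14.1 CPM in Dp1Tyb replicates 1 to 5. The groups did not overlap, by a margin of less than 1 CPM, a separation downwards that 0.673% of all tested genes showed. The log2 fold change was -0.24 (SE 0.098, unadjusted p = 0.033, edgeR adjusted p = 1.00), opposite in sign to *Dyrk1a*. *Csnk1d*, a casein kinase, was the most abundant of the list at 39.2 RPKM with 0.052 (SE 0.064), and *Mapk8*, which codes for the kinase JNK1, had 0.14 (SE 0.079).

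Genes of calcium release and store-operated entry, 10 of 10 tested, lay within 0.2 of 0 in 9 cases. *Itpr2*, a calcium channel of the endoplasmic reticulum, had the largest value at 0.34 (SE 0.18, unadjusted p = 0.082), and the calcium pump *Atp2a2* had 0.13 (SE 0.10). The 5 NFAT relatives and transport genes included *Homer2*, a scaffold that competes with calcineurin for NFAT, at -0.20 (SE 0.28) and the import receptor *Kpnb1* at 0.089 (SE 0.12). The 4 partners of DYRK1A lay between -0.070 and -0.017, namely *Dcaf7*, *Lin52*, *Rnf169* and *Fam53c*. *Dcaf7*, a scaffold for DYRK1A, had -0.017 (SE 0.070), *Lin52*, whose product DYRK1A phosphorylates in the DREAM complex, had -0.070 (SE 0.11), and *Rnf169* had -0.041 (SE 0.081).

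NFAT target genes scattered most. Of 18 listed, 12 were tested and 0 were called by either tool. Of the 12, 1 lay within 0.2 of 0, against 76.0% of all tested genes, with log2 fold changes from -0.54 to 1.34. *Tnf*, with the highest value, ranged from 0.235 to 13.7 CPM across WT cultures and from 0.0730 to 24.2 CPM across Dp1Tyb cultures. The angiogenic factor *Vegfa* ranged from 94.3 to 121 CPM across WT cultures and from 107 to 142 CPM across Dp1Tyb cultures, a log2 fold change of 0.24 (SE 0.11, unadjusted p = 0.055). The groups overlapped, with Dp1Tyb replicate 1 below 2 of the WT cultures. *Mef2c*, a transcription factor, had -0.43 (SE 0.23, unadjusted p = 0.095), and WT replicate 1 at 20.8 CPM stood above all other cultures, which were at 12.7 CPM or less. *Ctsk*, a collagen-degrading protease and the most abundant target at 138 RPKM, had 0.23 (SE 0.20).

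**Figure D5:**
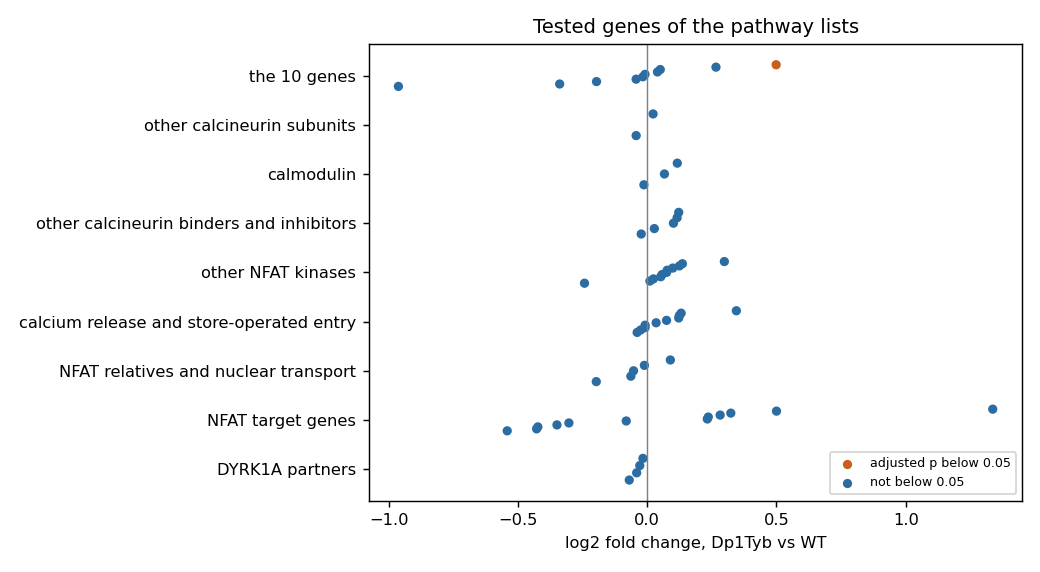
Log2 fold changes (horizontal) of the tested genes of each pathway list in Dp1Tyb vs WT MEFs, one point per gene, with the 10 genes in the top line. Dyrk1a is the one point with an adjusted p below 0.05 (orange), and the NFAT target genes spread from -0.54 to 1.34.

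The nearest tested genes on either side of *Dyrk1a* and *Rcan1* are duplicated too. *Vps26c*, a retriever complex gene 43.2 kb proximal of *Dyrk1a*, rose with a log2 fold change of 0.50 (SE 0.062, edgeR adjusted p = 0.017), close to the value of *Dyrk1a*. *Kcnj15*, a potassium channel gene 562 kb distal, had 1.13 (SE 0.33, adjusted p = 0.84) with overlapping groups. *Smim11*, 78.9 kb proximal of *Rcan1*, had 0.50 (SE 0.089, adjusted p = 0.13) with every Dp1Tyb culture above every WT culture. *Runx1*, a transcription factor gene 131 kb distal, had 0.21 (SE 0.16, adjusted p = 1.00) with overlapping groups.

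*Dyrk1a* and *Rcan1* also had different closest genes by profile over the cultures. Likeness was measured as the root mean square (RMS) difference of log2 CPM after subtracting each gene's mean, over 9 cultures and 14566 other genes. The 5 genes most like *Dyrk1a* were *Vps26c*, *Smim11*, *Scaf4*, *Donson* and *Hmgn1*, with RMS differences from 0.079 to 0.096, and all 5 lie in the duplicated region. The 5 most like *Rcan1* were *Rbm24*, *Ppp1r18os*, *Iqck*, *Rassf6* and *P2ry2*, with RMS differences from 0.075 to 0.19, and 0 of these lie in the region. Only 89 of the 14567 tested genes lie there, so 0 of 5 is near the background. *Rbm24*, an RNA-binding protein gene known from muscle, was closest, with Pearson's r of 0.99 to *Rcan1* over the 9 cultures as a description. It had only 6, 21, 14 and 10 counts in WT replicates 1 to 4 and 15, 19, 17, 13 and 13 counts in Dp1Tyb replicates 1 to 5. The counting error of a single culture reached 40.8% for *Rbm24*, 33.3% for *Ppp1r18os* and 25% for *Iqck*. These matches, picked as the closest of 14566 genes, therefore rest on few reads. *P2ry2*, a nucleotide receptor gene with more reads, was at 2.89, 9.17, 5.43 and 5.0 CPM in WT and 5.77, 9.74, 5.86, 5.46 and 4.58 CPM in Dp1Tyb. It was lowest in WT replicate 1 and highest in the cultures numbered 2, as *Rcan1* was.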

How the data were processed

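RNA from 4 WT and 5 Dp1Tyb MEF cultures, from separate littermate embryos, was analysed. The authors prepared stranded libraries, trimmed and mapped reads to GRCm38 with TopHat2 2.0.12 and counted them per Ensembl gene with HTSeq, and they deposited these counts without normalisation. The normalised values and the DESeq2 1.6.3 results (fold changes and p-values) that they also deposited were not used. Genes were matched to GENCODE M21 (42548 of 43629), and RPKM used the summed exon length.

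Counts were tested with edgeR 4.0.16 in R 4.3.3 (TMM, filterByExpr, quasi-likelihood, two-sided, no covariate) over 14567 genes, with Benjamini-Hochberg adjustment and a threshold of 0.05. A pseudocount of 0.1 CPM was added before log2. The tests were checked on simulated counts. Exact permutation tests enumerated all relabelings, 35 within set 2. Figures and tables were made with Python 3.11.15, pandas 2.3.3, numpy 2.4.6 and matplotlib 3.10.9. Alternatives were other size factors and filters, DESeq2 1.42.0, the culture set as a covariate, set 2 alone, a replicate block and each culture left out.

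The members and lists were chosen with earlier results of these data known. Named genes are the 10 members, pathway genes past the threshold, the 2 lowest p and the most abundant gene of each list, the 5 closest profiles and the nearest tested genes of *Dyrk1a* and *Rcan1*. Other genes named, such as *Fam53c*, *Ptgs2* and *Tnf*, were chosen after their values were seen. A few genes that the rule or the lists hold are not reported here. Reads carry no molecular identifiers, so counting errors cover counting only. The lowest chi-square per degree of freedom over the 16 within-genotype pairs of cultures was 19.4, so the libraries were taken as separate.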

Additional observations from a re-analysis of the deposited data

Results flagged for a closer look

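One value stood far from the others of its group. *Nfatc4* in WT replicate 4 was at 120.2 CPM, while the other 3 WT cultures were between 139.6 and 143.1 CPM, and the gap to the nearest of them was 0.848 of the group's range, above Dixon's 95% critical value. The 10 genes in both genotypes made 20 groups, of which chance marks about 1 in 20, so 1 mark is the number that chance gives. Without this culture the log2 fold change of *Nfatc4* was -0.24.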

How the results depend on the processing

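*Dyrk1a* kept a higher level in Dp1Tyb under every alternative run, but not its call. Its log2 fold change was 0.49 with a replicate block (adjusted p = 0.101) and 0.54 with set 2 alone (adjusted p = 0.074), neither of which passed the threshold, and between 0.48 and 0.54 with one culture left out, where 5 of 9 fits called it. The block fit and set 2 alone called 0 of the 10 genes in place of 1, and the fits without one culture called 0 to 1. Over all genes the block called 0 (802 at an unadjusted p below 0.05), set 2 alone 1, DESeq2 68, no filter 16 and the fits without one culture 2 to 26, against 24. The correlation of deviations between cultures of the same number was 0.33, 0.77, 0.041 and 0.36 for numbers 1 to 4. Since one was under 0.1 and the labels do not say which cultures shared a litter or day, the numbers were not taken as pairs. Both cultures numbered 1 do belong to set 1. With the block *Rcan1* had 0.42 (unadjusted p = 0.059). No pathway gene was called under any alternative run.

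*Rcan1* ranged from 0.039 to 0.64 with one culture left out, always above 0 and never called. Values near 0 changed sign, *Rcan3* to 0.055 with set 2 alone and *Nfatc1* to 0.00016 with DESeq2 size factors, 0.011 with the culture set as a covariate and 0.018 with set 2 alone. Without one culture *Rcan3* lay between -0.066 and 0.054 and *Nfatc1* between -0.075 and 0.090. The cause was not tested. By Pearson's r in place of RMS difference, 1 of the 5 closest genes of *Dyrk1a* and 2 of those of *Rcan1* stayed. By CPM in place of RPKM, 5 of 10 genes kept their rank. Depth limits *Nfatc2* most, at 11 to 70 counts.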

Other observations

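The cultures numbered 2 in both genotypes shared high values of some pathway genes. *Ptgs2*, an NFAT target that codes for cyclooxygenase, was at 36.9, 428, 210 and 214 CPM in WT replicates 1 to 4 and 141, 673, 121, 229 and 225 CPM in Dp1Tyb replicates 1 to 5. It was lowest in WT replicate 1 and highest in both cultures numbered 2, the order also seen for *Rcan1* at those ends. Dp1Tyb replicate 3 broke the match, with the third highest *Rcan1* at 104 CPM but the lowest *Ptgs2* of the Dp1Tyb cultures. *Fkbp1a* was at 341 and 423 CPM in the cultures numbered 2, above its range of 206 to 302 CPM in the other 7. The relation of these values to one another was not tested.

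*Tnf* gave the widest spread of the NFAT target genes. It was at 0.503, 0.235, 0.578 and 13.7 CPM in WT replicates 1 to 4 and 0.0730, 0.409, 24.2, 7.17 and 15.3 CPM in Dp1Tyb replicates 1 to 5. The cultures with the most *Tnf* were also those with the highest macrophage marker sums, at 197 CPM in WT replicate 4 and at 278, 125 and 224 CPM in Dp1Tyb replicates 3, 4 and 5, while no other culture was above 103 CPM. The part of these cells in the *Tnf* values was not tested.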
